A study of Bos taurus with 9 samples.

Results

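Cells given the transfection reagent jetMESSENGER without any RNA were compared with untreated cells, across every gene with enough reads. The comparison used 6 of the 9 libraries of the study, the 3 of the reagent alone group and the 3 of the untreated control group, chosen by their labels. All libraries came from bovine cells labelled as endometrial epithelial cells and kept in one growth medium. The reagent was added 24 hours after seeding, and untreated cells had no treatment by their label. A further group received the same reagent together with 500 ng of DPPA3 mRNA made in vitro. Its 3 libraries helped to estimate the spread, and its levels are given for some of the genes only. The sources used here give neither the dose of reagent nor the interval before RNA was taken, and no label says whether the replicates came from different cultures or animals. The p-values therefore rest on the spread among these samples only, and that spread may be technical.

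Reagents of this kind carry nucleic acid into cells in lipid particles. The particles are taken up by endocytosis, some escape from endosomes into the cytosol, and the remaining lipid is handled by lysosomes and by the enzymes of lipid metabolism. Lipid particles are known to disturb membranes and to set off stress and innate immune responses in some cells. The endometrial epithelium lines the uterus and its glands, and in ruminants it answers interferon tau from the embryo with a strong induction of interferon-stimulated genes. A reagent control in such cells therefore bears on how much of any later response belongs to the reagent and how much to the RNA it carries, which is the question the reagent alone group addresses.

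The libraries compared held between 3890134 and 12092771 counts, and reagent alone replicate 1 was the shallowest. Levels are given as CPM, the counts of a gene per 1e+06 counts of its library, with library sizes scaled by TMM factors, and values for a group are listed in the order of replicates 1 to 3. A library with 3 counts of a gene sits between 0.226 and 0.747 CPM, the floor below which nothing can be said. DPPA3, which only the third group was given, had 0, 2 and 1 counts in the untreated controls and 0 in each reagent alone library. Untreated control replicate 1 stood apart from the other libraries. The gene LOC112442408, which RefSeq lists as protein-coding, took 10.98% of its counts (exact Clopper-Pearson 95% interval 10.953% to 10.998%, counting error only), against 4.13% and 4.36% in the other untreated controls and 3.05% to 3.98% with reagent alone. Protein-coding genes of the mitochondrial genome took 0.172% of its counts, against 0.411% to 0.580% in the other 5 libraries. Wherever leaving it out moved a log2 fold change printed below by more than 1.5 times, the value without it is given too; in brackets it is the last value, after a semicolon. Counts of list members that moved by more than that are also given both ways.

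The labelled cell type was checked against its markers. Keratins of simple epithelium were abundant, with KRT8 at 4995, 4033 and 4324 CPM in the untreated controls and 4329, 3802 and 4070.5 CPM with reagent alone. The junction cadherin CDH1 lay between 37.6 and 58.7 CPM, whereas the epithelial adhesion molecule EPCAM lay between 0 and 0.782 CPM, at or near the floor, and was not tested. Matrix genes typical of mesenchymal cells were among the most abundant by count, COL1A1 and COL1A2 among them, and the intermediate filament gene VIM stood at 1725, 1515 and 1349 CPM and 1608, 1535 and 1321 CPM. The summed level of the 28 epithelial markers ranged from 10393 to 12744 CPM in the untreated controls and from 10061 to 10424 CPM with reagent alone, and that of the 24 stromal markers from 31409 to 48107 and from 29129 to 37279 CPM. In both lists the highest library was untreated control replicate 1. Immune cell markers summed to 12.03 to 15.5 and 11.95 to 16.1 CPM, with PTPRC, which marks all leukocytes, at 0 counts in all 6 libraries; endothelial markers summed to 26.99 to 31.4 and 25.7 to 37.9 CPM. In bulk RNA, fewer cells of a type and less RNA per cell cannot be told apart.

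With reagent alone, 0 of 14874 genes differed from untreated control, in either direction, by edgeR's quasi-likelihood F test at a Benjamini-Hochberg adjusted p of 0.05. The smallest adjusted p was 0.466, shared by 2402 genes, and every gene named below had an adjusted p of at least that value in this test. DESeq2 called 2 genes, both lower with reagent alone (0.0134% of the genes tested): LOC112442278 (adjusted p 0.0124) and MIR2887-1 (adjusted p 0.0172). At an unadjusted p under 0.05, 629 genes were higher with reagent alone (4.23%) and 887 were lower (5.96%), 10.2% of all genes in total. In 1030 genes all 3 reagent alone libraries lay above all 3 untreated controls (6.92%), and in 1072 all lay below (7.21%), 14.1% without overlap in all. These shares are the background against which the counts of each gene list below can be read.

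How many genes reached an unadjusted p under 0.05 depended on single libraries. Without untreated control replicate 1 the numbers were 324 higher (2.11%) and 284 lower (1.85%), and without untreated control replicate 2 they were 2159 and 2006; 0 genes passed the adjusted threshold in either case. Leaving out reagent alone replicate 1 gave 373 higher and 582 lower, and leaving out reagent alone replicate 2 gave 335 and 479. When replicate number entered the fit as a block, the numbers were 1563 higher and 1358 lower, with 0 genes past the adjusted threshold and a smallest adjusted p of 0.153. Over all 39 gene lists, not all of which are described below, none had more than 3 higher or 1 lower member at an unadjusted p under 0.05 once untreated control replicate 1 was left out. The plot of all genes tested shows how narrow the differences were for well-expressed genes, apart from a few transcripts described next.

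**Figure D1:**
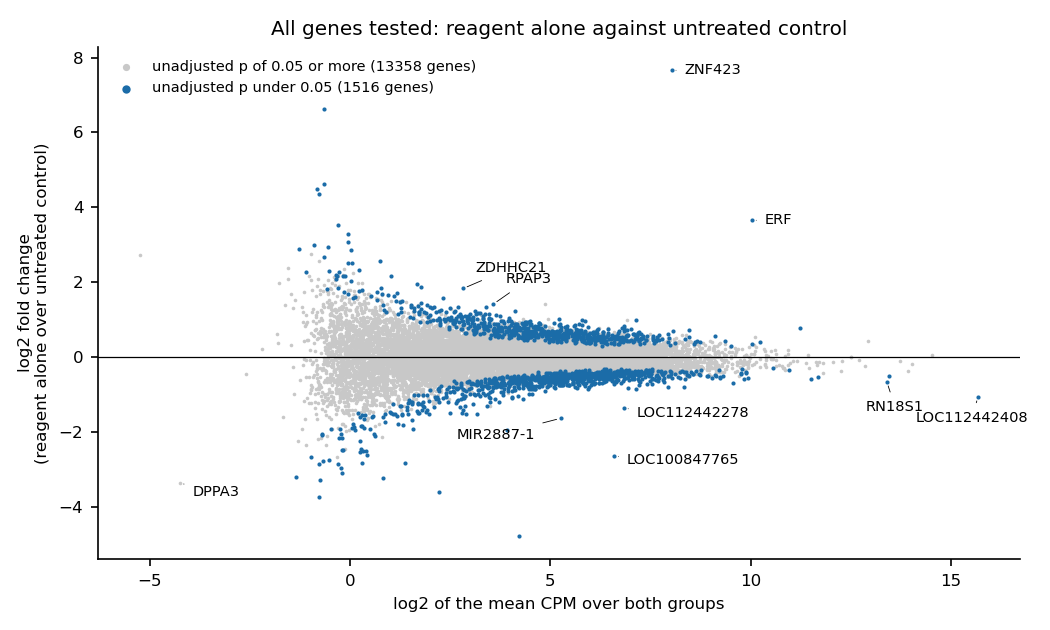
Each point is 1 of 14874 genes, with the log2 of its mean CPM over the 6 libraries on the x axis and its log2 fold change, reagent alone over untreated control, on the y axis; blue marks an unadjusted p under 0.05. LOC100847765 lies lowest among the abundant genes, and ZNF423 and ERF, each high in a single library, stand out on the upper side.

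The widest separation between the groups belonged to LOC100847765, a long noncoding RNA gene in RefSeq that sits beside DDX20. It was picked out after its values were seen. Its level was 164, 155 and 176 CPM in the untreated controls and 69.97, 8.08 and 7.17 CPM with reagent alone, so the lowest untreated control stood 2.21 times above the highest reagent alone library. Among 11032 genes with a mean of at least 5 CPM this was the largest such gap in either direction. Reagent alone replicate 1, the shallow library, held an intermediate level, and the 2 others were lower still. The cells that received reagent with DPPA3 mRNA stood at 27.8, 13.5 and 9.51 CPM, so all 6 libraries exposed to the reagent lay under all 3 that were not. Both groups were set against the same untreated controls, by which the gene was picked, so the second comparison is not independent of the first. The log2 fold change of reagent alone over untreated control was -2.64 (SE 0.69, 95% interval -4.13 to -1.16), with 281, 90 and 91 counts behind the reagent alone values. Without reagent alone replicate 1 it was -4.43 and passed edgeR's test (adjusted p 0.00330), limma voom with sample quality weights also called it (adjusted p 0.000527), and with untreated control replicate 1 left out it was -2.69 and did not pass. DESeq2 put it at -2.55 and gave no adjusted p for this gene. The neighbouring DDX20, an RNA helicase gene of the SMN complex that assembles small nuclear ribonucleoproteins, lay the other way, at 11.8, 24.6 and 19.2 CPM against 28.6, 36.8 and 25.7 CPM with reagent alone (log2 fold change 0.71, SE 0.27).

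Genes for ribosomal RNA were lower with reagent alone. The 16 such genes in the table took 1.44%, 1.56% and 1.14% of all counts in the untreated controls and 0.962%, 0.986% and 0.926% with reagent alone. The groups did not overlap, with means of 1.38% ± 0.215 and 0.958% ± 0.0299 (SD, n = 3). An exact two-sided permutation test over the 6 libraries gave p = 0.1, the smallest that 3 against 3 allows. The cells with reagent and DPPA3 mRNA held 1.10%, 1.08% and 1.005%, also under every untreated control. Whether a step that removes ribosomal RNA was part of library preparation is not given in the sources used here, and its part in the difference was not tested.

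Most of that share was 1 gene. RN18S1, the RNA of the small ribosomal subunit, stood at 15477, 13965 and 10267 CPM in the untreated controls and 8323, 8864 and 7896 CPM with reagent alone (log2 fold change -0.66, SE 0.15; -0.53 without untreated control replicate 1), and LOC112444653, annotated as a ribosomal RNA, at 1218, 819 and 777 against 573, 583 and 585 CPM (log2 fold change -0.69, SE 0.17; -0.45). Both had the group ranges apart. Both RNAs of the mitochondrial ribosome had overlapping groups. KEH36_r01 lay at 124, 356 and 213 and 341, 220.4 and 283 CPM (log2 fold change 0.28; -0.01 without untreated control replicate 1) and KEH36_r02 at 51.6, 117 and 76.96 and 77.4, 55.1 and 56.5 CPM (-0.39; -0.62). The 2 genes that DESeq2 called are next to each other in RefSeq. LOC112442278, listed as protein-coding, had 259.6, 112 and 122.9 CPM against 65.99, 66.02 and 59.1 CPM with reagent alone (log2 fold change -1.37, SE 0.26), and MIR2887-1, a microRNA gene, had 94.7, 45.04 and 33.2 against 22.2, 17.9 and 15.99 CPM (log2 fold change -1.63, SE 0.34). Untreated control replicate 1 was far the highest for both, and without it the log2 fold changes were -0.88 and -1.07. The counts of a total RNA library at a microRNA gene do not measure the mature microRNA, and whether counting used strand is not given in the sources used here.

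**Figure D2:**
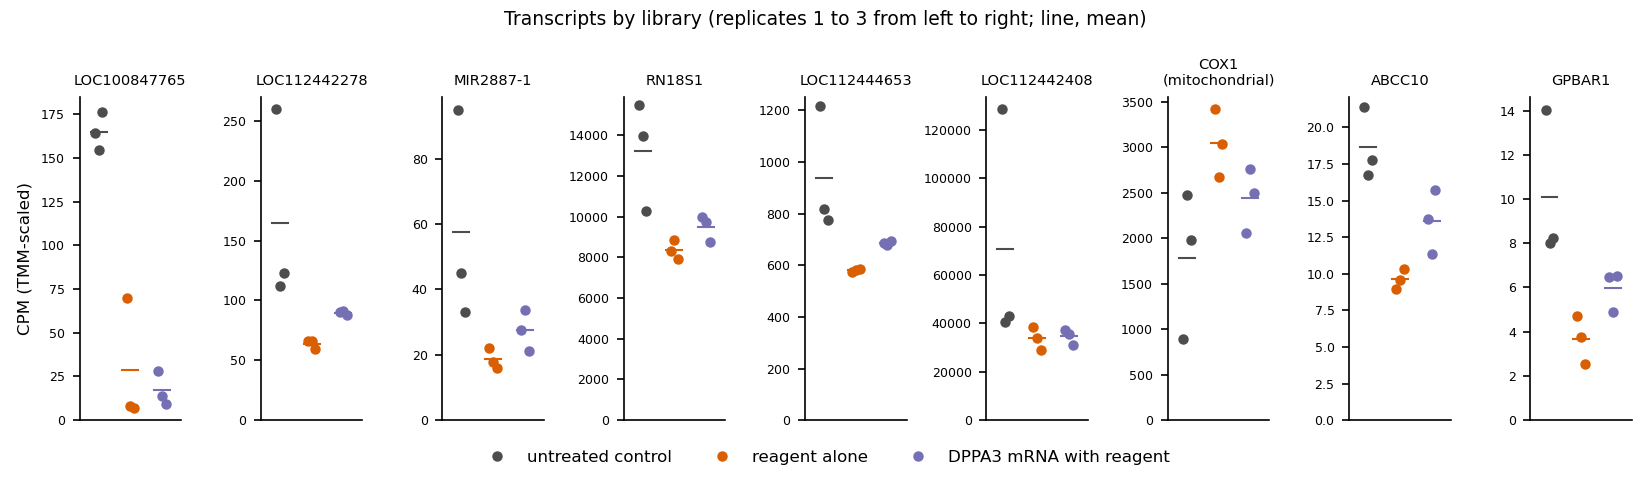
CPM of 9 transcripts in each library on linear axes that start at 0; grey is untreated control, orange is reagent alone, purple is DPPA3 mRNA with reagent, and lines are group means (n = 3). LOC100847765 stands between 155 and 176 CPM in the untreated controls and at most 69.97 CPM with reagent alone; LOC112442408, LOC112442278 and MIR2887-1 are highest in untreated control replicate 1.

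Transcripts of the mitochondrial genome were fewest in untreated control replicate 1. This genome encodes 13 subunits of the respiratory chain and of ATP synthase. Of the 13, 11 were higher on average with reagent alone, 1 at an unadjusted p under 0.05, and the median log2 fold change was 0.36, against -0.01 over all genes; without untreated control replicate 1 the median was 0.13 and 7 of the 13 were higher on average. COX1, the catalytic core of cytochrome c oxidase and the most abundant of them, stood at 887, 2476 and 1981 CPM in the untreated controls and 3422, 2675 and 3037 CPM with reagent alone. Its groups did not overlap (log2 fold change 0.77, SE 0.28; 0.46 without untreated control replicate 1), with untreated control replicate 2 nearest to the reagent alone libraries. Among 35 subunits of the chain encoded in the nucleus, 2 were higher and 1 was lower at an unadjusted p under 0.05 (1 and 1 without untreated control replicate 1). SDHD, an anchor subunit of complex II, had 10.96, 41.7 and 20.3 against 53.3, 54.6 and 42.4 CPM, NDUFV2 of complex I had 25.8, 39.2 and 32.2 against 54.8, 42.1 and 40.5 CPM, and CYC1, cytochrome c1 of complex III, had 78.6, 60.2 and 59.1 against 34.1, 37.8 and 45.1 CPM. The log2 fold changes were 1.03 (SE 0.39), 0.49 (SE 0.22) and -0.75 (SE 0.19).

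The list with the highest median was the machinery that moves new proteins into the endoplasmic reticulum and attaches N-linked sugars. Of its 32 tested members 29 were higher on average with reagent alone, 6 at an unadjusted p under 0.05 (18.8%, against 4.23% of all genes) and 0 lower. In 9 (28.1%, against 6.92%) the reagent alone libraries all lay above the untreated controls, with 0 the other way. Leaving out untreated control replicate 1 gave 9 and 1, beside 9.15% and 10.3% of all genes. The list's median log2 fold change was 0.42, which dropped to 0.16 without untreated control replicate 1, where 1 member had an unadjusted p under 0.05. OSTC, a subunit of the oligosaccharyltransferase complex, had 8.06, 22.4 and 16.5 CPM in the untreated controls and 27.4, 27.8 and 31.7 CPM with reagent alone (log2 fold change 0.88, SE 0.33). SEC62, which works with the translocon in bringing proteins across the membrane, had 14.8, 35.8 and 28.7 against 37.6, 67.6 and 42.8 CPM (0.90, SE 0.35). STT3B, a catalytic subunit of oligosaccharyltransferase, had 116, 198 and 159.9 against 213, 228 and 209 CPM (0.46, SE 0.18; 0.29). In all 3 genes untreated control replicate 1 was lowest and the ranges of the groups were apart. The signal peptidase subunit SPCS3 had 97.3, 166 and 115 against 191, 192 and 155 CPM, with overlap.

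Chaperones and folding enzymes of the unfolded protein response had a median above that of all genes too. Of 35 tested, 3 were higher and 1 lower at an unadjusted p under 0.05, with a median of 0.18 (0.07 without untreated control replicate 1, where 2 were higher and 0 lower). The higher members were DNAJB9, DNAJB11 and DERL2. DNAJB9, a J-domain co-chaperone of the endoplasmic reticulum, had 2.42, 6.82 and 3.03 CPM in the untreated controls and 8.47, 10.9 and 8.35 CPM with reagent alone, and DNAJB11, another, had 26.6, 33.1 and 34.3 against 51.8, 44.7 and 48.7 CPM. Both separated the groups, with log2 fold changes of 1.16 (SE 0.37) and 0.62 (SE 0.17), and 0.93 and 0.53 without untreated control replicate 1. Other J-domain proteins of the list, DNAJC3 and DNAJC10, had overlapping groups, with 0.42 (95% interval -0.10 to 0.94; 0.22) and 0.43 (95% interval -0.16 to 1.01; 0.19). HSPA5, the main luminal chaperone and a standard mark of the response, was at 400.3, 563 and 502 against 583, 591 and 559 CPM (log2 fold change 0.24, 95% interval -0.07 to 0.56; 0.13), with the groups overlapping between 559 and 563 CPM. DERL2, which helps to export misfolded proteins, had 5.96, 17.97 and 11.2 against 15.9, 23.4 and 18.8 CPM, and SDF2L1 had 36.7, 21.4 and 24.1 against 17.2, 19.9 and 20.3 CPM. Their log2 fold changes were 0.72 and -0.50, and 0.43 and -0.23 without untreated control replicate 1. In the integrated stress response, 0 of 30 tested genes were higher and 1 was lower at that threshold (0 and 0 without untreated control replicate 1): CEBPB, a leucine zipper transcription factor, at 352, 168 and 175 against 142, 144 and 141 CPM (log2 fold change -0.70; -0.26 without untreated control replicate 1). DDIT3, which encodes the stress factor CHOP, lay at 20.3, 15.8 and 14.96 and 22.2, 14.5 and 18.7 CPM, and ATF3 at 28.2, 26.5 and 22.98 and 32.9, 30.9 and 18.8 CPM, with the groups intermixed. Transport between the endoplasmic reticulum and the Golgi was divided. At an unadjusted p under 0.05, 6 of 39 were higher (15.4%, against 4.23% of all genes) and 3 lower (7.69%, against 5.96%). The reagent alone libraries all lay above the untreated controls in 1 member (2.56%, against 6.92%) and below in 4 (10.3%, against 7.21%). ARF4, a small GTPase of coat assembly, had 70.6, 160.01 and 108 against 174, 192 and 163 CPM, and the scaffold SEC16A of vesicle exit sites had 316, 190.3 and 231 against 173, 165 and 169 CPM (log2 fold changes 0.64 and -0.54). Without untreated control replicate 1 these were 0.41 and -0.31, and 0 of the 39 were higher and 1 was lower.

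**Figure D3:**
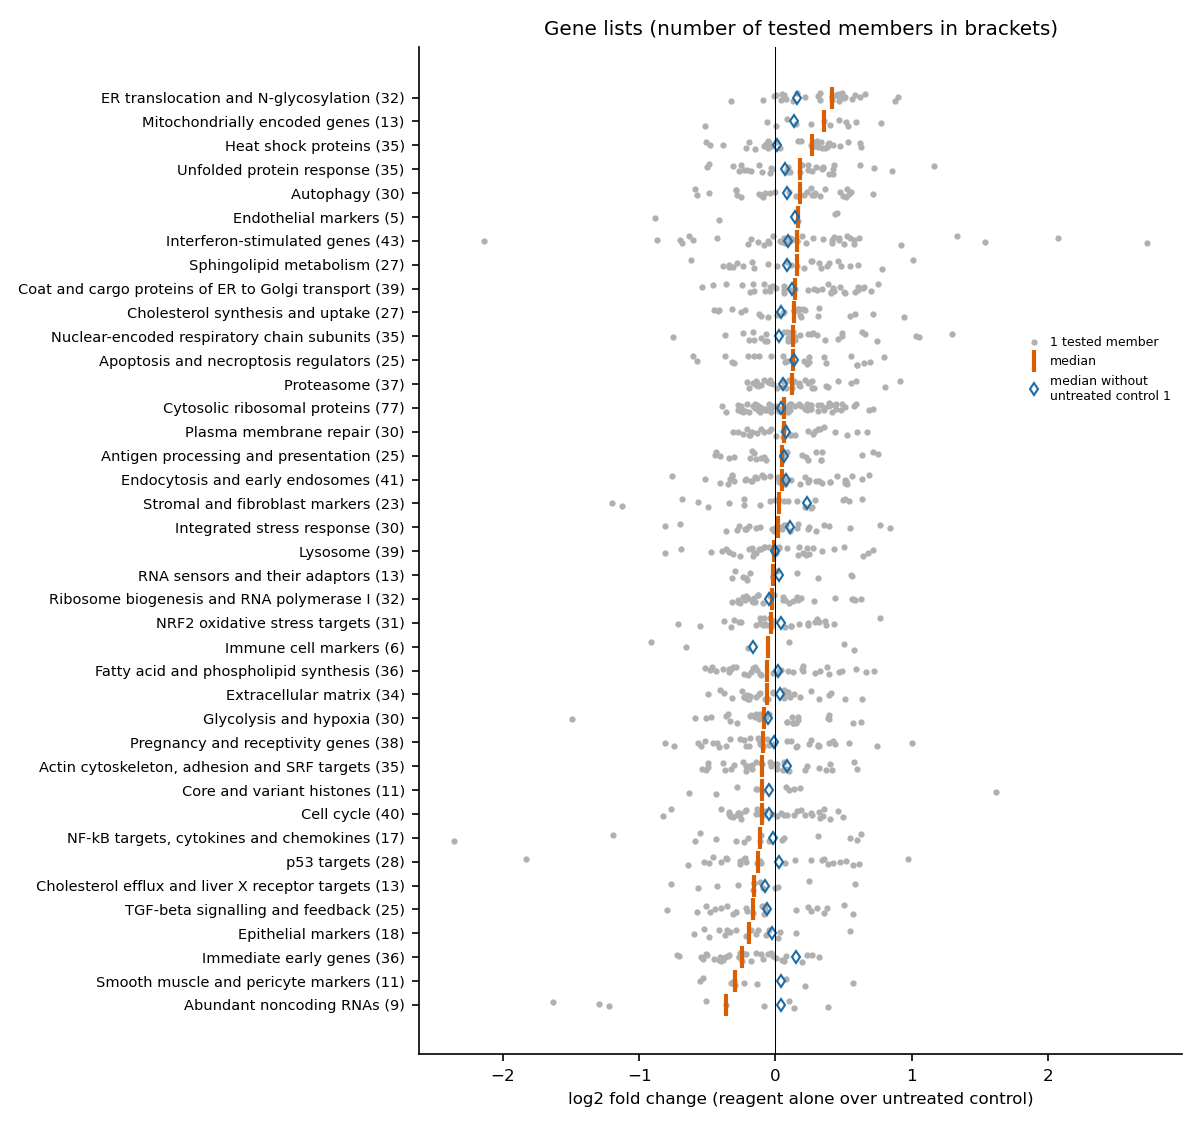
Log2 fold changes of the tested members of each gene list with at least 5 of them (grey points), with the list's median (orange bar) and the median without untreated control replicate 1 (blue diamond); higher with reagent alone is to the right. The translocation and N-glycosylation list has the highest median, 0.42, and leaving out the 1 library takes it to 0.16; immediate early genes go from -0.25 to 0.15.

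The 12 genes that exceeded untreated control by most were named by a rule that asks for a symbol, at least 5 CPM, an unadjusted p under 0.05 and groups apart. In all 12 the lowest library was untreated control replicate 1. ZDHHC21, a palmitoyltransferase that attaches fatty acid to proteins, had 0.645, 5.95 and 2.35 CPM in the untreated controls and 15.2, 12.3 and 6.07 CPM with reagent alone (log2 fold change 1.84, SE 0.57). MAGOHB, a part of the exon junction complex, had 0.322, 4.66 and 2.25 against 9.21, 8.53 and 5.12 CPM (1.59, SE 0.58). The first of these values lies under the floor of its library, 0.483 CPM. The untreated controls of ZDHHC21 and MAGOHB spread over more than the distance to the nearest reagent alone library, as did those of RPAP3. LSM6, IFT74 and DEPDC1 were tighter. LSM6, a subunit of the ring that binds U6 small nuclear RNA and of the decapping activator, had 2.58, 4.66 and 3.81 against 8.96, 9.07 and 10.005 CPM (1.33, SE 0.42; 1.16 without untreated control replicate 1). RPAP3, a co-chaperone that helps to assemble RNA polymerases, had 2.74, 9.63 and 6.85 against 17.9, 15.4 and 19.1 CPM (1.42, SE 0.36), and IFT74, a ciliary transport protein, had 2.58, 7.58 and 7.43 against 16.9, 15 and 13.7 CPM (1.34, SE 0.37). DEPDC1, linked to mitosis, had 2.74, 4.01 and 2.93 against 7.47, 6.47 and 10.005 CPM (1.30; 1.22 without that library). The values of LSM6 and DEPDC1 moved little when that control was dropped.

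Mitochondrial RNA and translation gave 2 more members of this set: SLIRP, which stabilises mitochondrial messenger RNA, at 4.83, 7.04 and 5.48 against 14.7, 10.6 and 14.2 CPM (1.17, SE 0.29), and MRPL22 of the large mitochondrial ribosomal subunit at 1.93, 7.36 and 5.87 against 13.4, 11.4 and 11.7 CPM (1.23, SE 0.37). Yet another protein of the same subunit, MRPL28, was among the lowest, at 21.1, 19.1 and 15.7 CPM in the untreated controls and 4.73, 10.2 and 8.51 CPM with reagent alone (-1.21, SE 0.28; -1.09 without untreated control replicate 1). Over all 78 tested genes with an MRPL or MRPS symbol, a family picked after values were seen, 3 were higher and 2 lower at an unadjusted p under 0.05 (1 and 1 without untreated control replicate 1), with a median of 0.09. The remaining 4 of the 12 were SLC25A16, a mitochondrial carrier (1.23), ZNF280D (1.22), ARL14EP (1.17) and DNAJB9. The monocarboxylate transporter gene SLC16A7, among the 10 with the smallest unadjusted p, had 1.61, 0.974 and 1.76 CPM in the untreated controls and 7.22, 5.03 and 3.94 CPM with reagent alone (1.86, SE 0.44; 1.94 without untreated control replicate 1). It stood at 3.02, 3.52 and 2.89 CPM with DPPA3 mRNA, so all 6 libraries with reagent lay above the untreated ones, which both groups share. The membrane protein TMEM9B, another by that rule, had 11.6, 18.1 and 13.5 against 30.1, 24.8 and 28.7 CPM (0.94, SE 0.24).

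Among the 12 lowest by the rule, GPBAR1, the cell-surface receptor for bile acids, had 14.02, 8.01 and 8.21 CPM in the untreated controls and 4.73, 3.77 and 2.52 CPM with reagent alone (-1.49, SE 0.35). ZC3H12A, an endoribonuclease that degrades inflammatory messenger RNAs, had 12.7, 4.33 and 7.92 against 3.49, 3.59 and 1.89 CPM (-1.49, SE 0.48), and ATP2C2, a calcium and manganese pump of the secretory pathway, had 19.3, 11.6 and 15.6 against 7.97, 5.12 and 7.41 CPM (-1.20, SE 0.31). SIRT6, a chromatin deacetylase, was highest in untreated control replicate 1. Its level was 15.3, 5.63 and 6.06 against 4.23, 3.23 and 4.65 CPM, and its log2 fold change of -1.14 became -0.53 without untreated control replicate 1. The scavenger receptor STAB1 (17.2, 6.39 and 7.73 against 2.24, 4.85 and 4.18 CPM) went from -1.40 to -0.84, and TMEM210 from -1.25 to -0.71. Beyond these, ZNHIT1, C21H15orf39, NEURL2 and CITED4, a transcriptional co-activator, had log2 fold changes of -1.32, -1.31, -1.19 and -1.18, and that of ZNHIT1 was -0.84 without untreated control replicate 1. ABCC10, a multidrug transporter gene named for its small unadjusted p, had 21.4, 16.8 and 17.8 against 8.96, 9.61 and 10.3 CPM (-0.94, SE 0.23), and the histone gene HIST1H2AM had 19.2, 16.2 and 10.9 against 7.47, 6.56 and 7.48 CPM (-1.10, SE 0.27). For ABCC10 the reagent alone libraries spanned 8.96 to 10.3 CPM and the value without untreated control replicate 1 was -0.82.

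**Figure D4:**
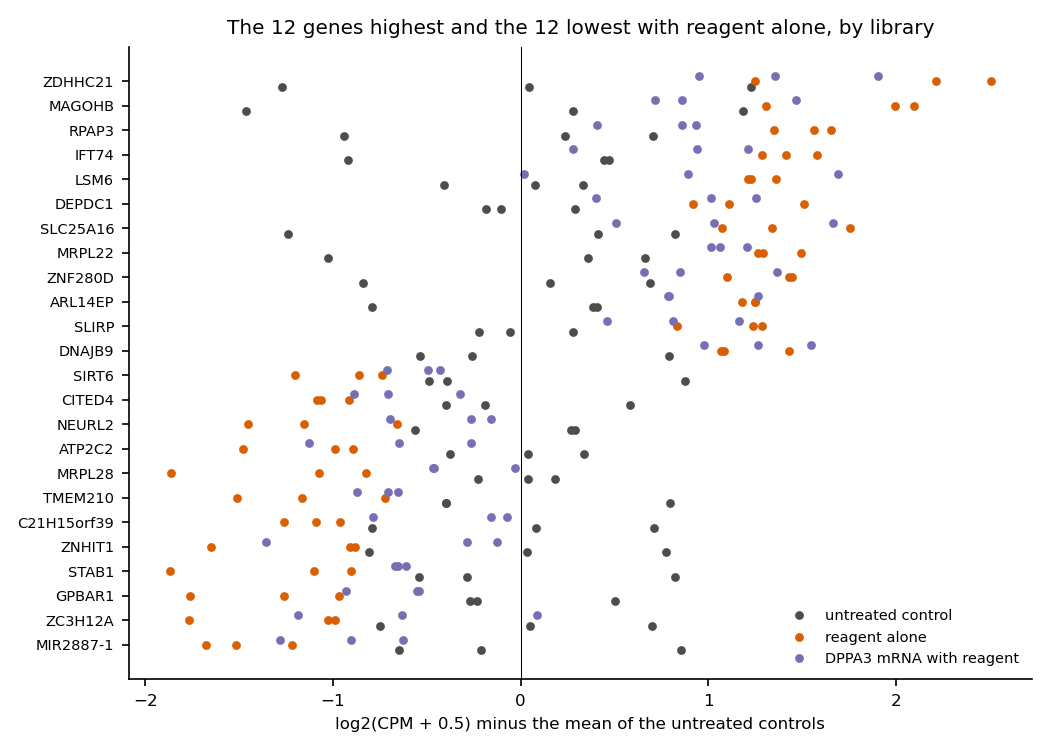
Each row is a gene, and each point a library, placed at its log2(CPM + 0.5) minus the mean of the 3 untreated controls; the upper 12 genes were higher and the lower 12 lower with reagent alone by the naming rule, which asks for groups that do not overlap. Libraries with DPPA3 mRNA and reagent are purple. They took no part in the requirement of groups apart, but they entered the fit that gave the p-values of the rule.

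A stricter view asked that the nearest libraries of the 2 groups differ by at least 1.5 times, a limit set after the values were seen. Of 11032 genes with a mean of at least 5 CPM, 13 met it with reagent alone higher (0.118%) and 7 with reagent alone lower (0.0635%). The higher ones included EIF4E, the factor that binds the cap of messenger RNA, at 8.06, 17.8 and 16.2 against 26.9, 26.7 and 28.1 CPM (0.95, SE 0.30), CYB5R4, a reductase, at 5.32, 5.52 and 5.87 against 11.95, 11.6 and 9.77 CPM (0.99; 0.96 without untreated control replicate 1), and the amino acid transporter gene SLC38A6 at 5.80, 6.93 and 7.04 against 13.7, 11.6 and 14.7 CPM (1.01; 0.94). In CYB5R4 and SLC38A6 the 3 untreated controls agreed closely. FANCL, a ubiquitin ligase of DNA crosslink repair, BLOC1S2, of a lysosome-related organelle complex, and ELMOD2 had log2 fold changes of 1.03, 1.09 and 1.16; the other 7 were LSM6, IFT74, ARL14EP, DEPDC1, RPAP3, MRPL22 and SLIRP. Besides LOC100847765, LOC112442278, GPBAR1, ABCC10 and MRPL28, the lower ones were the long noncoding RNA gene LOC107131704, at 12.2, 9.09 and 7.73 against 3.24, 4.40 and 3.62 CPM (-1.34, SE 0.33), and LOC112443717, at 8.86, 5.95 and 6.45 against 3.49, 3.41 and 3.23 CPM (-1.07, SE 0.36). With reagent and DPPA3 mRNA, the levels of LSM6, IFT74, BLOC1S2, CYB5R4, SLC38A6, RPAP3, EIF4E, FANCL and MRPL28 overlapped those of the untreated controls. BLOC1S2 stood at 4.30, 6.68 and 5.18 CPM there, CYB5R4 at 7.69, 11.7 and 4.16 CPM, and MRPL28 at 18.1, 13.3 and 13.2 CPM. The other genes of this set lay apart from the untreated controls, on the side of reagent alone. The set was chosen by its distance from these same untreated controls, so this is not an independent check.

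Genes for the cytosolic ribosome and the proteasome had small median differences. Of 77 ribosomal protein genes, 5 were higher and 0 lower at an unadjusted p under 0.05 (3 and 0 without untreated control replicate 1), and the median was 0.07. RPS29 of the small subunit had 48.7, 73.3 and 62.1 CPM against 97.9, 79.2 and 97.8 CPM with reagent alone (0.57, SE 0.17), and RPSA had 432, 685 and 560.2 against 809, 752 and 709.7 CPM (0.44, SE 0.17). Both separated the groups; RPL35A did not. Ribosomal protein genes have many processed copies in the genome, so reads can be split among them. Factors that build ribosomes, with RNA polymerase I, gave 1 higher of 32 and 0 lower, and 0 of either without untreated control replicate 1 (WDR12, 0.58; median -0.03). In the proteasome, 2 of 37 were higher and 0 lower (1 and 0 without untreated control replicate 1), with a median of 0.12 (0.06). The reagent alone libraries all lay above the untreated controls in 8 members (21.6%, against 6.92% of all genes) and below in 0. Without untreated control replicate 1 these counts were 9 and 2, beside 9.15% and 10.3% of all genes. PSMD7, a lid subunit, had 24.5, 33.3 and 28.4 against 49.1, 43.02 and 35.4 CPM (0.56, SE 0.19), and the core subunit PSMA4 had 9.18, 29.01 and 15.9 against 30.9, 38.6 and 33.1 CPM (0.91, SE 0.36).

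Some interferon-stimulated genes, MX1, ISG15 and IFI6 among them, were low and variable in these libraries. Of 43 listed genes tested, 0 had an unadjusted p under 0.05 in either direction. Their median log2 fold change was 0.16 (0.09 without untreated control replicate 1), with 29 higher and 14 lower on average. The reagent alone libraries lay above all untreated controls in 2 (4.65%, against 6.92% of all genes) and below in 3 (6.98%, against 7.21%). Without untreated control replicate 1 these counts were 3 and 6 of 45, beside 9.15% and 10.3% of all genes. The antiviral GTPase MX1 stood at 5.80, 10.2 and 8.80 CPM in the untreated controls and 8.72, 10.1 and 27.1 CPM with reagent alone, a log2 fold change of 0.92 whose 95% interval ran from -0.91 to 2.75. ISG15, a ubiquitin-like modifier, was at 1.29, 1.41 and 0.685 against 0.249, 0.269 and 3.47 CPM, and IFI6, a mitochondrial membrane effector, at 5.80, 8.66 and 9.09 against 2.74, 5.84 and 15.3 CPM (95% interval -1.74 to 1.96). In all 3 genes the highest reagent alone library was replicate 3. The ISG15 values of reagent alone replicates 1 and 2 were at or under the floors of those libraries, 0.747 and 0.269 CPM. The same genes in the cells given DPPA3 mRNA stood at 27.9, 669 and 116 CPM for MX1, 4.52, 105 and 17.6 CPM for ISG15 and 21.3, 461 and 88.8 CPM for IFI6. The intervals for the reagent alone are wide, so a moderate difference in these low genes was not detectable. Genes listed for the response but lower with reagent alone in all 3 libraries included PML, the scaffold of nuclear bodies, at 95.2, 63.5 and 87.1 against 41.8, 49.6 and 60.7 CPM (-0.68, 95% interval -1.40 to 0.03), and TRIM25, at 98.3, 78.9 and 92.3 against 73.7, 57.8 and 68.9 CPM (-0.43). Among 13 sensors of foreign RNA and their adaptors, 0 reached an unadjusted p under 0.05 and the median was -0.02.

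Of 17 targets of NF-kB, cytokines and chemokines, 1 was higher and 2 were lower at that threshold (0 and 1 without untreated control replicate 1). The neutrophil chemokine CXCL5 had 109, 211 and 175 CPM in the untreated controls and 214, 241 and 266 CPM with reagent alone (0.54, SE 0.22; 0.33). CSF1, the macrophage growth factor, had 202, 121 and 151 against 98.4, 114 and 111 CPM (-0.55, SE 0.18; -0.32), and the NF-kB subunit RELB had 64.3, 29.1 and 36.2 against 30.4, 25.4 and 29.9 CPM (-0.59; -0.19 without untreated control replicate 1). CXCL5 and CSF1 had groups apart. Heat shock genes gave 3 higher of 35 and 0 lower, with a median of 0.27 that was 0.01 without untreated control replicate 1, where 0 were higher. The members were HSPA13 (0.62; 0.41), DNAJA1 (0.63; 0.41) and CCT3, a subunit of the cytosolic chaperonin (177, 243 and 252 against 269, 278 and 299 CPM, 0.34; 0.20). HSPA1A, the inducible heat shock protein, stood at 449, 325 and 358 and 317, 341 and 361 CPM. Of 31 targets of the oxidative stress factor NRF2, 1 was higher (CAT, catalase, 0.36) and 0 lower, 0 and 0 without untreated control replicate 1, and HMOX1, heme oxygenase, stood at 70.9, 50.4 and 45.6 and 51.8, 48.4 and 58.1 CPM, with the groups intermixed.

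Genes of the uptake route and of lipid handling were divided between both directions. Plasma membrane repair genes had 0 of 30 at an unadjusted p under 0.05; ANXA7, an annexin, had 37.5, 80.7 and 58.4 against 73.2, 99.3 and 81.4 CPM (0.52, 95% interval -0.01 to 1.06; 0.30). Endocytosis and early endosome genes had 2 higher and 2 lower of 41 (1 and 1 without untreated control replicate 1), with a median of 0.05. The members were of the clathrin route: DNM1, a dynamin that cuts vesicles free, had 8.22, 10.3 and 7.43 CPM against 4.48, 5.12 and 5.59 CPM with reagent alone (-0.76, SE 0.31; -0.78 without untreated control replicate 1), the adaptor subunit AP2A1 had 297, 199 and 247 against 172, 189 and 199 CPM (-0.41; -0.24), AP2S1 of the same adaptor had 13.7, 9.31 and 8.997 against 17.4, 15.1 and 13.5 CPM (0.53), and EPS15 had 43.02, 87.6 and 67.3 against 99.9, 88.1 and 95.1 CPM (0.51; 0.29). The subunits of 1 adaptor thus lay on both sides. Lysosomal genes had 2 higher and 2 lower of 39 (0 and 1 without untreated control replicate 1). The membrane protein LAMP2 had 29.2, 81.3 and 49.1 against 77.7, 87.8 and 90.8 CPM (0.68; 0.40) and ATP6AP2 of the proton pump 18.2, 50.8 and 37.6 against 44.8, 64.5 and 57.1 CPM (0.64; 0.35), whereas the protease CTSF had 124, 64.4 and 87.8 against 56.3, 54.2 and 59.8 CPM (-0.70; -0.41) and the glycogen hydrolase GAA 101, 63.7 and 67.6 against 60.8, 55.4 and 51.4 CPM (-0.47; -0.23). Autophagy genes had 3 higher and 3 lower of 30 (1 and 0 without untreated control replicate 1), with a median of 0.18 (0.08). The higher ones were GABARAPL2 (0.52; 0.36), GABARAP (0.49; 0.57) and ATG12 (0.72; 0.49), which form or help to attach the ubiquitin-like coat of the autophagosome. The lower ones were the initiating kinase ULK1 (-0.49; -0.22), the lipid transfer protein ATG2A (-0.57; -0.23) and MAP1LC3A (-0.59; -0.27), each with overlapping groups. In 3 members of the list (10%, against 6.92% of all genes), GABARAP among them, the reagent alone libraries all lay above the untreated controls. In 0 they lay below, against 7.21% of all genes.

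Cholesterol synthesis and uptake had 1 higher and 1 lower of 27 (0 and 0 without untreated control replicate 1), with HMGCS1, an early enzyme of the pathway, at 19.3, 32.4 and 22.8 against 35.9, 33.4 and 40.02 CPM (0.55) and SCAP, the sterol-sensing escort of the SREBP factors, at 206, 119 and 138 against 109, 109 and 121 CPM (-0.45; -0.18 without untreated control replicate 1). Cholesterol efflux genes under the liver X receptors had 0 higher and 2 lower of 13 (1 and 0 without untreated control replicate 1). The receptor NR1H2 had 80.4, 60.6 and 64.3 against 57.5, 48.6 and 46.95 CPM (-0.43), and APOE, an apolipoprotein that carries cellular cholesterol, had 44.8, 17.8 and 26.8 against 14.9, 14.9 and 21.9 CPM (-0.77; -0.34 without that library). Fatty acid and phospholipid synthesis had 1 higher and 1 lower of 36 (1 and 0 without untreated control replicate 1). PCYT1A, which controls the rate of phosphatidylcholine synthesis, had 57.04, 85.96 and 62.5 CPM in the untreated controls and 129, 92.8 and 88.9 CPM with reagent alone (0.59, SE 0.20), and DGAT1, which makes triglyceride, had 46.2, 31.5 and 29.04 against 23.9, 25.1 and 25.2 CPM (-0.52, SE 0.21; -0.28). Both had groups apart. In sphingolipid metabolism, 1 of 27 was higher and 1 lower (0 and 0 without untreated control replicate 1): SGMS2, a sphingomyelin synthase, had 6.77, 12.9 and 6.75 against 15.2, 15.5 and 14.9 CPM (0.78, SE 0.32; 0.64 without untreated control replicate 1), and SMPD2, a neutral sphingomyelinase that breaks sphingomyelin down, had 32.4, 20.2 and 22.98 against 15.4, 19.2 and 14.2 CPM (-0.62, SE 0.24; -0.39). The synthase and the hydrolase lay in opposite directions, each with groups apart.

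Proliferation and cell death genes differed in a few members. Of 40 cell cycle genes, 0 were higher and 4 lower at an unadjusted p under 0.05, a share of 10% against 5.96% of all genes. MCM3, of the helicase that opens DNA for replication, had 70.6, 66.8 and 72.3 CPM against 57.8, 54.1 and 53.9 CPM with reagent alone (-0.34, SE 0.14; -0.32 without untreated control replicate 1), with groups apart. CDC20, an activator of the anaphase-promoting complex, had 17.2, 7.36 and 17.2 against 9.21, 6.56 and 7.96 CPM (-0.83), and E2F1 and MCM4 had log2 fold changes of -0.77 and -0.40. Without untreated control replicate 1 that of MCM4 was -0.21, and 1 cell cycle gene was lower at that threshold. The proliferation marker MKI67 stood at 220.4, 140.4 and 227 and 172, 131 and 165 CPM. Apoptosis and necroptosis genes had 0 higher and 2 lower of 25 (1 and 1 without untreated control replicate 1). FADD, the adaptor of death receptors, had 51.1, 36.8 and 39.3 against 30.4, 23.9 and 31.1 CPM (-0.58, SE 0.19) and BID, which links those receptors to mitochondria, had 62.4, 35.1 and 39.9 against 28.6, 28.3 and 32.7 CPM (-0.61, SE 0.23; -0.31). Targets of p53 gave 3 in each direction of 28 (1 and 0 without untreated control replicate 1). POLK, a translesion DNA polymerase, was at 8.70, 18.7 and 17.2 against 37.6, 27.7 and 23.9 CPM (0.97, SE 0.28), while CDKN1A, the p21 cell cycle inhibitor, stood at 152, 103 and 89.9 and 97.1, 106 and 84.1 CPM.

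Signalling through TGF-beta and BMP gave the list with the largest share of lower members at an unadjusted p under 0.05. Next came smooth muscle and pericyte markers, with 2 of 11 lower (18.2%), and 0 without untreated control replicate 1. In the TGF-beta list 5 of 25 were lower (20%, against 5.96% of all genes) and 0 higher. The reagent alone libraries lay below all untreated controls in 5 (20%, against 7.21%) and above in 1 (4%, against 6.92%). Leaving out untreated control replicate 1 gave 5 below and 2 above, beside 10.3% and 9.15% of all genes. ID1, an early target of BMP signalling that blocks helix-loop-helix transcription factors, had 616, 284 and 321 CPM in the untreated controls and 220.4, 216 and 266 CPM with reagent alone (-0.79, SE 0.25). Its relative ID3 had 151, 98.6 and 114 against 102, 85.1 and 88.7 CPM (-0.40), the inhibitory SMAD6 had 212, 131 and 162 against 112, 137 and 113 CPM (-0.48), and the ligand BMP7 had 90.4, 45.1 and 66.6 against 44.1, 42.04 and 48.999 CPM (-0.58). In all 4 genes untreated control replicate 1 was highest. Without it the values were -0.36, -0.21, -0.27 and -0.30, the list's median went from -0.17 to -0.06, and 1 member was lower and 1 higher. Immediate early genes had 0 higher and 1 lower of 36, and 0 of either without untreated control replicate 1 (JUND, -0.55; -0.15 without untreated control replicate 1), and their median changed sign when that library was left out, from -0.25 to 0.15. KLF2, a shear-responsive factor of that list, had 33.5, 9.31 and 11.4 against 10.2, 10.6 and 11.5 CPM, high in that 1 library.

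Genes tied to pregnancy and receptivity in the ruminant endometrium gave 2 higher and 0 lower of 38 (1 and 0 without untreated control replicate 1). PTGES3, a cytosolic prostaglandin E synthase and co-chaperone, had 61.1, 130.1 and 97.2 CPM in the untreated controls and 159, 184 and 142 CPM with reagent alone (0.75, SE 0.26; 0.52 without untreated control replicate 1), and SPP1, the adhesion protein osteopontin, had 37.5, 170.1 and 72.5 against 235, 181 and 148 CPM (1.002, SE 0.40; 0.64). PTGES3 had groups apart and SPP1 did not. Antigen processing and presentation had 0 of 25 in either direction. Matrix genes had 0 higher and 1 lower of 34 (1 and 0 without untreated control replicate 1), COL1A1, at 18918, 10456 and 9972 against 8778, 11045 and 8085 CPM (-0.50; -0.12), and the abundant FN1, fibronectin, stood at 17293, 24571 and 27968 and 19951, 26429 and 26354 CPM. Of 23 tested stromal markers 12 were higher and 11 lower on average, with a median of 0.03, and 0 were higher and 3 lower at an unadjusted p under 0.05. Without untreated control replicate 1 these became 2 and 0, with a median of 0.23. With all 6 libraries the lower ones were COL1A1 and the mesenchymal transcription factors TWIST1 and TWIST2, at 10.6, 5.41 and 3.81 against 1.99, 2.25 and 4.02 CPM (-1.20; -0.68) and 14.5, 6.39 and 7.24 against 3.74, 4.31 and 4.57 CPM (-1.12; -0.67). Of 18 tested epithelial markers 0 reached an unadjusted p under 0.05. In the actin and adhesion list, 3 of 35 were higher, with the tropomyosins TPM3 (70.9, 160.2 and 112 against 164, 187 and 171 CPM, 0.60; 0.36) and TPM4 and the integrin ITGB1 (303, 446 and 348 against 489, 496 and 459.9 CPM), and 2 were lower (0 and 0 without untreated control replicate 1). Glycolysis and hypoxia genes had 0 higher and 2 lower of 30 (0 and 1 without untreated control replicate 1): the mitophagy receptor BNIP3 (15.95, 19.4 and 22.9 against 14.7, 10.1 and 14.2 CPM, -0.59; -0.70) and the glycolytic enzyme ALDOA (546, 411 and 505 against 345, 369.5 and 433 CPM, -0.35).

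A few genes differed through a single library. ZNF423, a zinc finger transcription factor, had 3.06, 2.81 and 1.96 CPM in the untreated controls and 2.49, 1555 and 3.07 CPM with reagent alone, so replicate 2 held 17314 counts where no other library exceeded 3.07 CPM. ERF, a repressor of the ETS family, had 199, 128 and 135 against 243, 5489 and 93.7 CPM, again with 61109 counts in reagent alone replicate 2. Without that library their log2 fold changes went from 7.66 to 0.12 and from 3.66 to 0.12. The sphingosine 1-phosphate receptor gene S1PR4 was high in untreated control replicate 1 (316 CPM) and at or under 0.747 CPM in the other 5 libraries, and it was not tested. FOXL2, a transcription factor of the ovary and uterus, varied several fold within each group, at 9031, 3698 and 7039 and 14793, 7031 and 4916 CPM (0.44, 95% interval -0.44 to 1.31; 0.74 without untreated control replicate 1). These genes were picked after their values were seen.

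The differences were also set against how much of the genome a gene spans. In RefSeq (ARS-UCD2.0, used only for names, neighbours and spans), a span was found for 91.6% of the genes tested, and the protein-coding ones were cut by span into 5 bins of 2543 genes. From the shortest to the longest bin, the median log2 fold change of reagent alone over untreated control was -0.15, -0.11, -0.0014, 0.09 and 0.09. In the shortest bin 60 genes were higher and 206 lower at an unadjusted p under 0.05, and in the longest bin 152 were higher and 79 lower. Untreated control replicate 1 departed most from the mean of the 6 libraries, by 0.23 in the shortest and -0.15 in the longest bin (medians of log2(CPM + 0.5)). Without it the medians ran from -0.03 to 0.06, the same order with a smaller range.

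**Figure D5:**
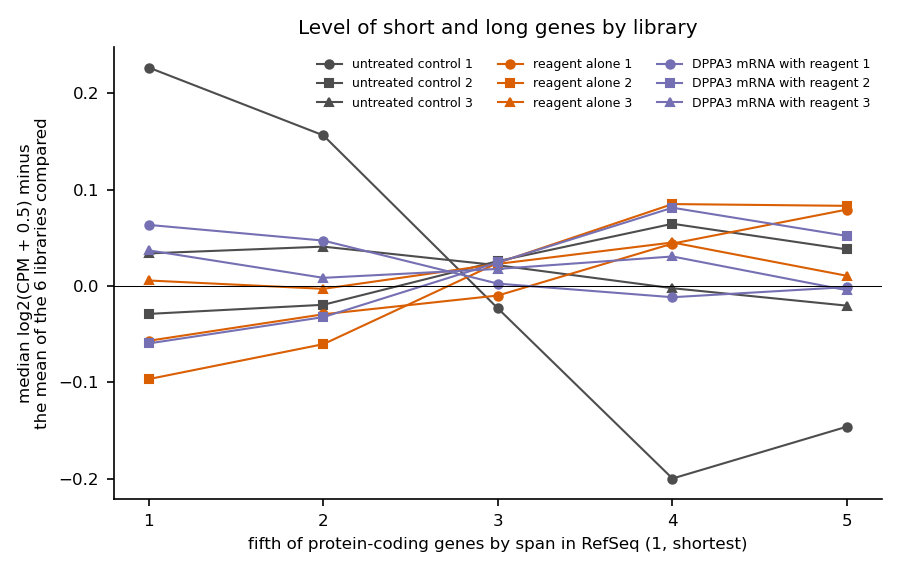
Protein-coding genes were grouped into 5 bins of equal size by span (x axis), and each line joins a library's median log2(CPM + 0.5) relative to the mean of the 6 libraries compared (y axis). Untreated control replicate 1 falls from 0.23 to -0.15, while the other libraries stay closer to 0.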

How the data were processed

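Total RNA was sequenced in 9 libraries, 3 in each of 3 groups; per the labels the kit was IDT's xGen for RNA. For every library the authors deposited whole-number counts of reads on each of 30641 gene symbols. Trimmomatic, HISAT2, HTSeq and edgeR are named in the submitters' processing notes; the sources used here give no version, genome build, annotation or use of strand.

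The deposited counts were tested with edgeR 4.0.16 in R 4.3.3 (filterByExpr, TMM, glmQLFit and glmQLFTest, group only, all 9 libraries) with Benjamini-Hochberg adjustment over 14874 genes and a threshold of 0.05. The common biological coefficient of variation was 0.255. DESeq2 1.42.0, limma 3.58.1 (voom), other scalings and filters, a replicate block, thinning and each library left out were alternatives. Replicates differed beyond sampling noise (chi-square per degree of freedom at least 13.4). The binomial interval and the floors (3 counts) cover counting error only. The scripts were tested on simulated data. SE is the log2 fold change over the root of F.

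Named genes were DPPA3, genes called by either tool, the 12 highest and 12 lowest with a symbol, at least 5 CPM, an unadjusted p under 0.05 and no overlap, the 10 smallest p with a symbol, up to 4 members of each of 39 lists, the 5 most abundant, and the main ribosomal RNAs. The members and lists were chosen with earlier results of these data known. Any gene outside the naming rule was picked with its values in view. RefSeq (ARS-UCD2.0) matched 24565 of 30641 symbols and gave the mitochondrial gene names.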

Additional observations from a re-analysis of the deposited data

How the results depend on the processing

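The absence of calls by edgeR held with DESeq2 size factors, upper quartile factors, a filter at 5 CPM, only the 6 libraries compared, the replicate block, thinning to the smallest total, ribosomal RNA and DPPA3 left out, robust empirical Bayes, and LOC112442408, ERF and ZNF423 left out. Without a filter on low counts 18 genes were called, among them LOC100847765, LOC112442278, MIR2887-1, RN18S1, ID1, KEH36_p11 (COX1), SPP1, ERF and ZNF423. DESeq2 called 2 (LOC112442278 and MIR2887-1) and limma voom 2 (LOC100847765 and LOC112442278). Leaving out each library in turn gave 0 to 1 calls, and leaving out untreated control replicate 1 with reagent alone replicate 1 gave 1, LOC100847765 both times. At an unadjusted p under 0.05 the number of genes was 1516, against 2528 without the filter, 3900 with limma voom, 943 with the 6 libraries, 608 to 4165 leaving out each library and 516 leaving out both replicates 1. Genes without overlap numbered 2102, and 2888 to 6412 with a library left out, where fewer libraries make separation easier.

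The labels give the groups the same replicate numbers. Deviations of equal numbers correlated at 0.167, 0.165 and 0.111 on log2(CPM + 0.5), and at 0.153, 0.143 and 0.0934 with a prior count of 2, either side of the limit of 0.1, so the pairing is unsettled. Each sample deviated most like its own number. The replicate block gave 2921 genes at an unadjusted p under 0.05 and 0 calls.

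Of 2644 values of 140 named genes under the alternatives, 2588 kept direction and side of the threshold, 19 passed it and 37 changed sign; the cause was not tested. With limma voom the log2 fold changes were FN1 -0.14, COL1A2 0.027, IFI6 -0.19, CDKN1A 0.024, HMOX1 0.16, VIM 0.093 and CDH1 -0.022. They were IFI6 -0.015 with the replicate block, DPPA3 0, IFI6 -0.038, ATF3 -0.033 and CDH1 -0.021 after thinning, and COL1A2 0.062, KLF2 0.10, KEH36_r01 -0.17, HMOX1 0.16, HSPA1A 0.052 and VIM 0.0063 without both replicates 1. Leaving out each library gave ranges across 0 for ATF3 (-0.056 to 0.30), CDH1 (-0.11 to 0.18), DDIT3 (-0.031 to 0.26), FN1 (-0.10 to 0.21), FOXL2 (-0.14 to 0.74), HMOX1 (-0.20 to 0.15), HSPA1A (-0.25 to 0.0044), IFI6 (-0.77 to 0.42), ISG15 (-2.01 to 1.05), KEH36_r01 (-0.0083 to 0.74), KLF2 (-1.04 to 0.070) and VIM (-0.12 to 0.065). Robust empirical Bayes, leaving out LOC112442408, ERF and ZNF423, leaving out both replicates 1 and the counts of separated genes with a library left out were chosen after seeing the data. Depth limits genes near the floor, most of all in reagent alone replicate 1.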
